A study of Mus musculus with 16 samples.

Results

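The comparison concerns m6A peaks of mouse peri-infarct cortex at 6 h of reperfusion against the end of occlusion, and its members are 2554 exonic regions of 41423. MeRIP-seq immunoprecipitates fragmented RNA with an antibody against N6-methyladenosine (m6A), sequences what is bound, and calls peaks where the bound RNA exceeds the input. Adult male C57BL/6J mice of 6 to 8 weeks had the middle cerebral artery blocked for 2 h with a filament (middle cerebral artery occlusion and reperfusion, MCAO/R) and were taken with no reperfusion (Re_0h in the sample records, here Re-0 h) or after 6 h of it (Re_6h, here Re-6 h). Both groups share the surgery and the occlusion, and by their labels differ in reperfusion time. Each had 6 mice and 2 immunoprecipitated libraries, replicates 1 and 2, and how many animals stand behind a library is not given in the sources used here. Controls that had the surgery without the filament (Sham) and a Re-24 h group, also 2 libraries each, did not define the gained and lost regions. They served to see which regions and genes were called there, and for a restriction of genes and an alternative joining.

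Peaks of the 2 Re-0 h and 2 Re-6 h lists were joined wherever they overlapped in exonic sequence of a strand, and the 89320 peaks gave 41423 regions in 12424 genes. A region was called gained when it held a peak in both Re-6 h lists and in neither Re-0 h list, and lost in the reverse case. These words describe the lists and not a measured change in methylation, since the input libraries were not analysed here and more RNA and more m6A per RNA cannot be told apart. Nor can fewer cells of a type be told apart from less RNA per cell. Read depth is unknown, and the list sizes, 19837 and 24078 peaks at Re-0 h and 22205 and 23200 at Re-6 h, are the only measure of how much was called. Each peak has a score whose scale is not given, so it was used only as a percentile within its own list, with 100 for the highest, and a region takes the percentile of its highest peak in a list. Values given as a pair are those of replicates 1 and 2. With 2 lists against 2 there are 3 divisions of the lists, the smallest exact permutation p is 0.333, and no test is reported.

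m6A is placed on nascent RNA by a writer complex built around METTL3 and METTL14, mostly in long internal exons and around the stop codon, within a short motif that often reads GGACT. Reader proteins of the YTH family bind the mark and change how long the RNA lasts and how well it is translated, and FTO and ALKBH5 can remove it. Short-lived RNAs made after a stimulus, such as those of immediate early genes, are well-known carriers of the mark in neurons.

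The sequences below show the GGACT closest to the centre of a gained or lost region, as 25 nt of the transcript with GGACT in capitals, read from the GENCODE M39 transcripts on GRCm39. The gained ones come from genes that had no Re-0 h peak (Gpr101, Irs4, Prlr, Nkx2-4, Ghsr, Dusp6) or belong to the reperfusion-response lists (Ccn1, Atf3, Tnfaip3). The lost ones come from the leading translation gene, from RNA processing and m6A reader genes, and from the vascular list.
Gpr101 (gained, 3′ UTR, chrX:56545209-56545233, minus strand): acggacataaGGACTatttggcctt
Irs4 (gained, coding, chrX:140504560-140504584, minus strand): acgtgagaatGGACTttgccagacg
Prlr (gained, coding, chr15:10328425-10328449, plus strand): ctgactgtgaGGACTtgctggtgga
Nkx2-4 (gained, coding, chr2:146925836-146925860, minus strand): cggccaccggGGACTacggcggagg
Ghsr (gained, 3′ UTR, chr3:27429122-27429146, plus strand): tagccaagcgGGACTtgggaggagg
Dusp6 (gained, coding, chr10:99100655-99100679, plus strand): gctgtgccaaGGACTcgaccaactt
Ccn1 (gained, coding, chr3:145354358-145354382, minus strand): tgacctcctcGGACTcgatgcctcg
Atf3 (gained, 3′ UTR, chr1:190902640-190902664, minus strand): ctggccaccaGGACTctggctactg
Tnfaip3 (gained, coding, chr10:18880767-18880791, minus strand): aggccctgaaGGACTcccaggcgtg
Eif3a (lost, coding, chr19:60750689-60750713, minus strand): aaagatgaccGGACTgaagagaggg
Cpsf7 (lost, coding, chr19:10517080-10517104, plus strand): cctctcttaaGGACTgtcttcatgg
Ythdf2 (lost, coding, chr4:131938099-131938123, minus strand): tcaaaaggatGGACTaaatgatgat
Kdr (lost, 3′ UTR, chr5:76094610-76094634, minus strand): tgtgggatgtGGACTgggaggaagg

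Both Re-6 h libraries stood apart from the other 6 in genes that mark brain regions other than the cortex, which is the labelled tissue. A list of 56 hypothalamic and septal genes was drawn up after the leading gained genes had been seen and without them. Leaving those genes out does not make the list independent of these data, so its counts are descriptive only. At least 1 peak was found in 25 and 28 of these genes in the 2 Re-6 h lists, against 8 and 11 at Re-0 h, 9 and 12 in Sham, and 8 and 14 at Re-24 h. The Re-6 h counts lie above all the others with no overlap. Of the 30 listed genes with a region in the 4 lists, 10 (33.3%) held a gained region and 0 a lost one, where the background over all genes with a region is 9.64% gained and 8.89% lost. The mixed divisions of the lists gave 0 to 2 such genes each.

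The genes concerned are transcription factors and receptors of the hypothalamus. Otp, a homeobox factor of neurosecretory neurons, had 3 and 2 peaks in the Re-6 h lists. Magel2, an imprinted gene of the hypothalamus, had 3 and 7, and Tbx3, a factor of the arcuate nucleus, had 3 and 4. Ghsr, the ghrelin receptor, had 1 and 5 peaks, and Lepr, the leptin receptor, had 3 and 1. Each of these 5 genes had 0 peaks in all 6 other lists, as did Nkx2-1, Nkx2-4, Sim1, Fezf1, Gabre and Asb4, which makes 11 listed genes called in both Re-6 h lists and nowhere else. No listed gene was called in both lists of Sham alone, of Re-0 h alone or of Re-24 h alone.

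The neuropeptide genes Avp, Oxt, Trh, Hcrt, Agrp, Npy, Gal, Cartpt and Ghrh, which mark hypothalamic neurons, had 0 peaks in all 8 lists. Crh had 1 in replicate 2 of Sham, Re-6 h and Re-24 h each, Pmch 1 in replicate 2 of Sham and of Re-24 h, and Pomc 1 in replicate 2 of Re-24 h. Of 3 other regional lists, also added later, a pair were called most often at Re-6 h. For 31 striatal and subpallial genes, the 2 lists of each group counted 14 and 15 genes in Sham and 14 and 17 at Re-0 h. They counted 21 and 19 at Re-6 h and 16 and 17 at Re-24 h. Both Re-6 h counts lay above all the others, but the list holds Six3, Isl1 and Gpr101, leading gained genes with peaks at Re-6 h only. Without these genes the Re-6 h counts overlapped those of other groups. For 36 thalamic, midbrain and hindbrain genes the counts, in the same order, were 1 and 3, 3 and 3, 6 and 8, and 1 and 2. Both Re-6 h counts were on top there, and Shox2, Irx1 and Irx3 were called in both Re-6 h lists only. Cortical excitatory neuron genes, 20 in number, were called about equally often throughout, at 15 and 17, 18 and 18, 19 and 18, and 16 and 15. The part of RNA from other brain regions in the results that follow was not tested.

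**Figure D1:**
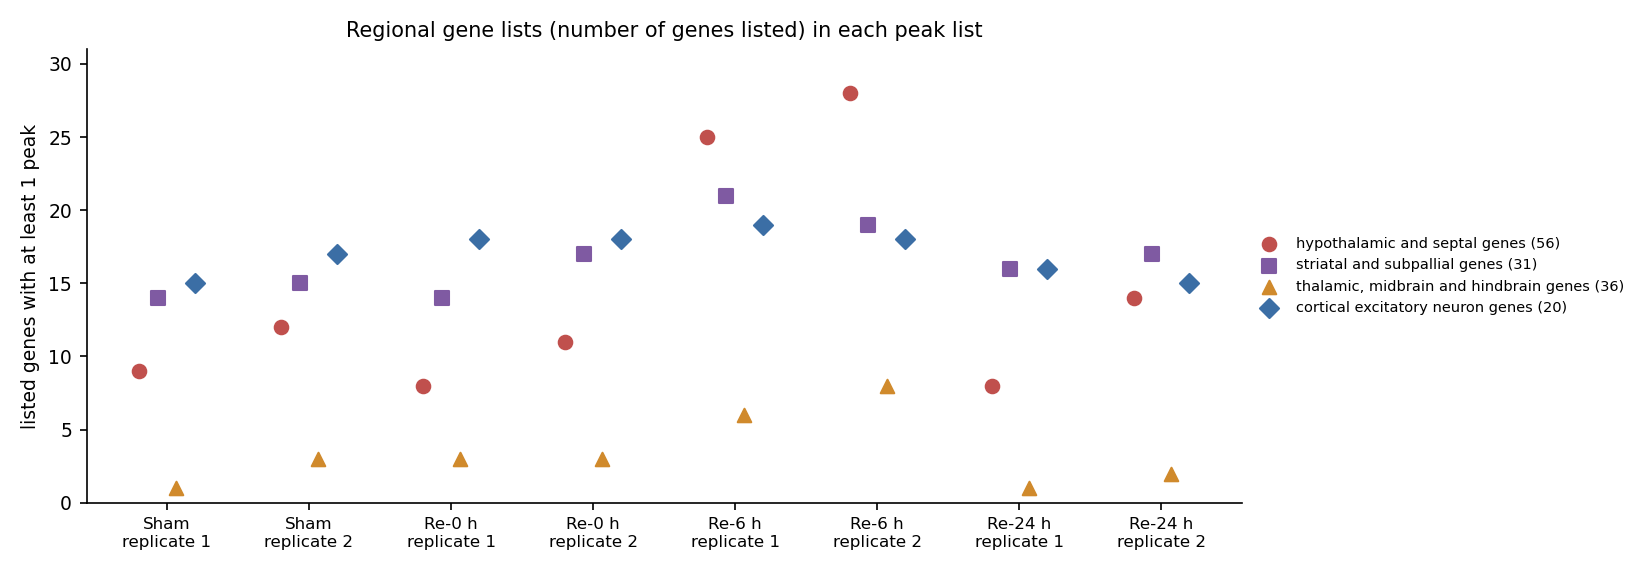
Number of genes of 4 regional lists (y axis, genes with at least 1 peak) in each of the 8 peak lists (x axis, group and replicate), with 1 point per gene list and library. The hypothalamic and septal points at Re-6 h, 25 and 28, sit above the 8 to 14 of the other 6 libraries, and the cortical points stay between 15 and 19.

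Across all genes the same group stood out less sharply. In all, 142 genes had a peak in both Re-6 h lists and in none of the other 6, against 67 for Re-0 h, 90 for Re-24 h and 43 for Sham. With at least 3 peaks in each list there were 5 such genes at Re-6 h (Dchs2, Gabrq, Irs4, Magel2 and Tbx3), 2 at Re-24 h, and 0 at Re-0 h and in Sham. Genes called in a single group held 89 of the 1357 gained regions (6.56%) and 34 of the 1197 lost regions (2.84%). Most of the regions described here therefore lay in genes that other groups called too.

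Reperfusion for 6 h divided the lists into 1357 gained regions in 1198 genes and 1197 lost regions in 1104 genes, or 3.28% and 2.89% of all regions. The 2 mixed divisions put a Re-0 h list and a Re-6 h list on each side and so hold no difference between the groups. Divided by replicate number they gave 2292 regions (735 shared by the lists numbered 1 and 1557 by those numbered 2), and crosswise 1933 (746 and 1187). The 2554 regions that divide the lists by group were thus 1.21 times the mean of the mixed divisions, 2112.5, and 37.7% of the 6779 regions found in exactly 2 lists. The lists numbered 2 alone shared more regions, 1557, than either group did. The count by group exceeded the higher mixed division by less than the mixed divisions differed from each other.

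The excess over the mixed divisions was larger among strong peaks. Of regions at or above the 50th percentile in each of their lists, 674 divided by group, against 480 by number and 404 crosswise, a ratio of 1.52. At the 75th percentile the counts were 197, 103 and 89, a ratio of 2.05, and at the 90th they were 35, 10 and 18, a ratio of 2.5. Gained and lost regions contributed 86 and 111 at the 75th percentile and 14 and 21 at the 90th. When only genes with a peak in a Sham list and in a Re-24 h list were kept, which drops the genes called at Re-6 h alone, 1057 gained and 988 lost regions remained and the ratio was 1.16.

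**Figure D2:**
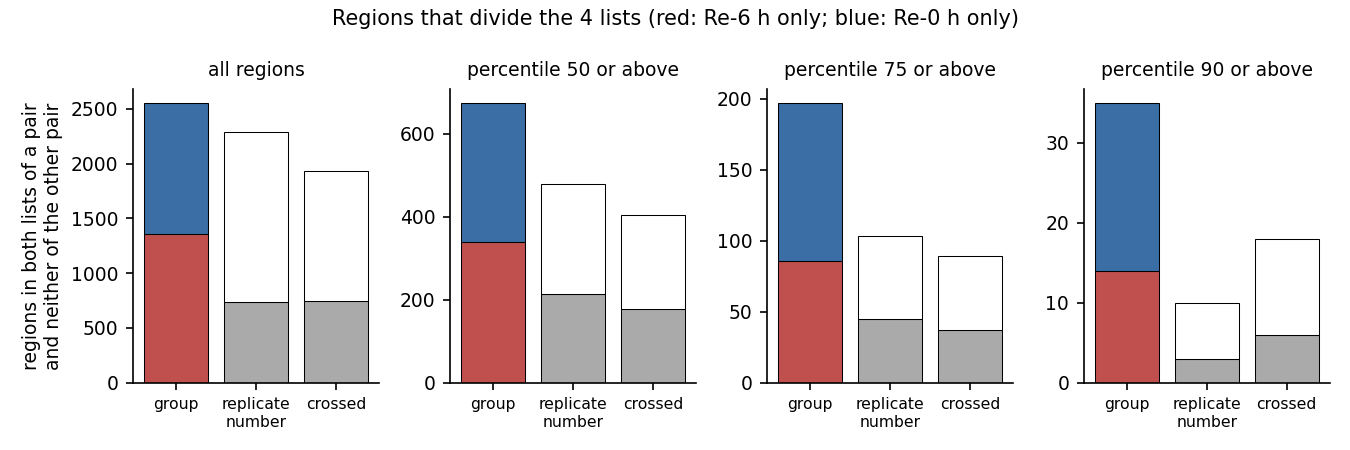
Number of regions (y axis) that divide the 4 lists by group, by replicate number and crosswise, for all regions and for those at or above the 50th, 75th and 90th percentile of the score in each of their lists, with a y scale of its own per panel. Bars are stacked from the 2 sides of a division, red for gained, blue for lost, grey and white for the sides of a mixed one. Division by group gave the highest count in every panel, 2554 against 2292 and 1933 for all regions and 35 against 10 and 18 at the 90th percentile.

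Of the 10 genes with the highest gained regions, 3 (Gpr101, Six3 and Isl1) are on the striatal and subpallial list. That list was drawn up after they had been seen, so their place on it is not a separate result. Gpr101, an orphan receptor gene, had 1150 nt of its 3′ UTR called (chrX:56544678-56545827, minus strand, last of 2 exons), at percentiles 99.2 and 99.3, and no peak in any list outside Re-6 h. Six3, a homeobox factor of the ventral forebrain, followed with 600 nt of 3′ UTR at 97.0 and 97.1, and Isl1, a LIM homeobox factor of striatal and hypothalamic neurons, with 700 nt of 3′ UTR at 94.8 and 96.8. Neither had a peak outside the Re-6 h lists, so these 3 genes divided the groups as whole genes and not by position.

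Other leading gained regions lay in genes with peaks at Re-0 h as well. Cdc73, part of the polymerase-associated PAF1 complex, had a 75-nt region of a non-coding exon at 99.8 in both lists. Zim1, an imprinted zinc finger gene, had 950 nt of 3′ UTR at 97.0 and 98.0. Mycbp2, a ubiquitin ligase of axons, had coding sequence over exon 26 of 85 at 96.0 and 95.9, 4860 nt of exon from the nearest Re-0 h peak. The ubiquitin ligase gene Hecw1 (96.1 and 96.5), which also lost a region, and the kinase gene Wnk3 (92.8 and 93.0) completed this group with Ankrd50 (92.1 and 92.6) and the forkhead gene Foxn2 (90.8 and 94.1). The Wnk3, Ankrd50 and Foxn2 regions were called in both Sham and both Re-24 h lists, so it was the Re-0 h lists that lacked them.

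Among genes with no Re-0 h peak at all, Irs4, an insulin receptor substrate of the hypothalamus, had a 3′ UTR region at 87.5 and 90.2. The Irs4 gene held 4 and 6 peaks in the Re-6 h lists and 0 in the other 6, with 3 gained regions. Its region at the stop codon contains the sequence shown above, 26 nt before the stop.

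Several genes gained 3 or more regions at once. Zim1 gained 6, with 9 and 7 peaks at Re-6 h against 1 and 0 at Re-0 h. Dst, which codes for the cytoskeletal linker dystonin, gained 5 and went from 10 and 13 peaks to 22 and 20. Prlr, the prolactin receptor, gained 4, with 4 and 7 peaks against 0 and 0, and Etaa1, a replication stress gene, gained 4, with 6 and 4 against 1 and 2. These peak counts restate in part what chose the genes.

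Those that gained 3 regions ranged from signalling genes to chromatin genes. Gabrq, a GABA-A receptor subunit of hypothalamus and brainstem, had 6 and 4 peaks against 0 and 0 and none in Sham or Re-24 h. Scn1a, the sodium channel of fast-spiking neurons, went from 3 and 3 peaks to 8 and 8. Ifit1, an interferon-induced gene, went from 0 and 0 to 6 and 4 and kept 2 and 2 at Re-24 h. Baz1a, a chromatin remodelling subunit, went from 0 and 0 to 3 and 5. Igsf10 (0 and 1 to 6 and 10), Zfhx3 (5 and 10 to 18 and 23), the non-coding Kcnq1ot1 (9 and 15 to 22 and 26), Stk32a (0 and 0 to 5 and 5) and Onecut2 (1 and 2 to 5 and 7) gained 3 each as well. In Igsf10 the rise was also seen at Re-24 h, with 8 and 12 peaks, and Sham had 0 and 0. The remaining genes of this kind were Epb41, Capn2, Stard9, Gne, Ttc28, Erc1, Fhdc1, Gpalpp1, Bcor, Nynrin, Plce1 and Asxl3, and of these Stard9 alone had counts that overlapped between the groups (3 and 15 against 10 and 13), while Nynrin and Ttc28 also lost 1 region each.

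Of the 10 genes with the highest lost regions, 5 are nuclear RNA processing genes, and the other 5 differ in role. Zfp866 had 75 nt of 5′ UTR at 99.0 and 98.7, called in both Sham lists as well. Erich3, which also gained 2 regions, had 700 nt of coding sequence at 98.9 and 98.4, and Tusc3, a subunit of the oligosaccharyltransferase, had 50 nt of exon 9 of 11 at 98.2 and 97.3. Tusc3 had no Re-6 h or Re-24 h peak and 1 peak in each Sham and each Re-0 h list. Eif3a, the largest subunit of translation initiation factor 3 and a proposed m6A reader, had 100 nt of its last 2 exons at 95.6 and 95.9, and Vezt, an adherens junction gene, had 475 nt of 3′ UTR at 95.5 and 97.3.

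The other leading lost genes were all nuclear RNA processing genes. Ppig, a nuclear cyclophilin bound to splicing factors, had coding sequence of its last exon at 99.1 and 97.9. Zrsr2, which recognises the 3′ splice site of minor introns, had 300 nt over 4 exons at 97.7 and 98.2, although it also gained a region at 52.0 and 34.3 in its last exon. Rbm25 (94.6 and 94.7), a splicing regulator, and Bclaf1 (93.3 and 94.5), a nuclear mRNA-processing factor, had coding regions, and Pabpn1, the nuclear poly(A) binding protein, had 3′ UTR at 92.7 and 93.1. These 5 led to a list of 92 nuclear RNA processing genes, so its count is not independent of them.

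Of that list, 77 genes had a region, and 19 (24.7%) held a lost region against 7 (9.09%) with a gained one. Over all genes the shares were 8.89% lost and 9.64% gained, so the gained share was near that of all genes. The mixed divisions gave 4 to 11 genes. Further members with high scores were Pnn, a splicing speckle gene (96.2 and 92.7), Son, a speckle scaffold (91.4 and 88.6), Mbnl2, a splicing regulator of neurons (82.8 and 80.9), and Rbm17 (78.3 and 79.1). Whole-gene calling differed less: 61 and 63 listed genes had a peak at Re-0 h, 62 and 53 at Re-6 h, 63 and 52 in Sham and 45 and 47 at Re-24 h, so the groups overlapped. The lost regions were found unevenly in Sham: of the 20 regions, 14 were called in Sham replicate 1 and 4 in Sham replicate 2, with 4 and 7 at Re-24 h. Sham replicate 1 thus resembled the Re-0 h lists here more than Sham replicate 2 did.

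Lost regions also clustered in some genes. Ndn, an imprinted single-exon gene of neurons, lost 3 regions along its 3′ UTR and had 3 and 3 peaks at Re-0 h, 0 and 0 at Re-6 h, 2 and 3 in Sham and 1 and 2 at Re-24 h. All 3 Ndn regions were called in both Sham and both Re-24 h lists, so only the Re-6 h lists lacked them. Rere, a co-repressor gene, lost 3 and had 5 and 4 peaks against 0 and 0, with 6 and 1 in Sham and 1 and 0 at Re-24 h. Mia3, an endoplasmic reticulum export gene, lost 4 and went from 11 and 10 peaks to 7 and 5. Prrc2c (12 and 15 to 9 and 9), Kmt2d (18 and 17 to 13 and 14), Znfx1, Preb, Sytl2 and 1500004A13Rik also lost 3 each, and the counts of the last 4 touched or overlapped (Sytl2 had 10 and 13 against 8 and 13). Genes without any Re-6 h peak and with high lost regions were Tusc3, Pabpn1, Cfap36 (89.1 and 89.3), Arpp19 (95.3 and 87.6) and Spire1 (86.4 and 87.1).

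In all, 126 genes gained 2 or more regions and 81 lost 2 or more. Both a gained and a lost region were held by 122 genes, 10.2% of the genes that gained and 11.1% of those that lost.

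Immediate early genes, transcribed within minutes of a stimulus, gained more often than they lost. Of 39 with a region, 8 (20.5%) held a gained region and 4 (10.3%) a lost one, against 9.64% and 8.89% of all genes and 2 to 6 genes in the mixed divisions. Those mixed sets hold 697 to 1406 genes in all, against 1198 gained and 1104 lost, and the counts were not scaled to set size. Jun, a subunit of the AP-1 factor, gained 150 nt of its 3′ UTR at percentiles 73.1 and 83.1, and this stretch was also called in 3 of the other 4 lists. Klf6, a zinc finger factor, gained 31 nt of coding sequence at 60 and 69.1, and Per1, a clock gene that responds to stimuli, gained 3′ UTR at 67.2 and 70.7. Further gains were in Atf3, a stress factor (48.9 and 43.5), Maff (45.1 and 27.2), Ccn1 (27.8 and 30.2), Klf10 and Arl5b. The lost regions were in Fosb (60.6 and 72.4), Ier5 (59.2 and 70.9), Klf10 (57.9 and 64.9) and Ier2. As many listed genes were called at Re-0 h, 34 and 32, as at Re-6 h, 32 and 33. Arl5b had 0 and 0 peaks at Re-0 h and 1 and 1 at Re-6 h.

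MAP kinase feedback genes, whose products shut the ERK pathway down again, gained in 3 of 17 genes (17.6%) and lost in 1 (5.88%). The mixed divisions gave 1 to 2 genes, and the shares over all genes with a region were 9.64% gained and 8.89% lost. Dusp1, a phosphatase of MAP kinases, gained 325 nt before its stop codon at 82.8 and 72.8, and the gene had 2 and 0 peaks at Re-0 h against 4 and 3 at Re-6 h. Dusp6, a phosphatase of ERK, had 0 and 0 peaks at Re-0 h and 3 and 3 at Re-6 h, with gained regions at up to 63.5 and 76.8. Sham had 2 and 2 Dusp6 peaks and Re-24 h had 2 and 3, so Re-0 h was the low group. Spry1, a receptor signalling inhibitor, gained a coding region at 61.9 and 33.5, while Spry2 lost one at 64.8 and 56.8.

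Inflammatory and NF-kB signalling genes gained in 7 of 47 (14.9%) and lost in 2 (4.26%), beside 9.64% and 8.89% over all genes, but a mixed division gave up to 9. Ripk1, a kinase between inflammation and cell death, gained 400 nt of coding sequence at 82.4 and 80.6 and went from 2 and 3 peaks to 5 and 5. Rel, an NF-kB subunit, gained at 58.5 and 36 and went from 0 and 1 peaks to 4 and 2. Socs3, a feedback inhibitor of cytokine receptors, gained 2 regions, the higher at 41.5 and 24.3, and went from 0 and 2 peaks to 4 and 5. Tnfaip3, which codes for the NF-kB inhibitor A20, gained at 13.1 and 39.3, Cd14 at 26 and 26.3 and Tlr3 at 1.12 and 29.1, and Socs6 was the seventh gene. Lost regions, in Ticam1 (10.5 and 18.2) and Cish (0.615 and 1.29), had low scores.

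Heat shock and protein-folding genes gained in 3 of 36 (8.33%) and lost in 0, with 1 to 4 genes in the mixed divisions, so the gained share was near the 9.64% of all genes. Hspa1a, the inducible HSP70 chaperone, gained 100 nt of coding sequence at 54.8 and 57.9 immediately beside a Re-0 h peak, and its gene counts overlapped, at 2 and 5 against 3 and 3. Hspa4l, a chaperone cofactor, gained a 3′ UTR region at 50.0 and 68.0, and Sesn2, a stress-induced gene, gained one at 70.0 and 43.9.

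Of 42 hypoxia and vascular genes with a region, 5 (11.9%) held a lost region and 1 (2.38%) a gained one, with 1 to 4 genes in the mixed divisions and 8.89% lost and 9.64% gained over all genes. The lost share was thus near that of all genes. Vegfa, the main endothelial growth factor, lost 175 nt of coding sequence at 51.3 and 37.1, and Flt1, a VEGF receptor, lost 3′ UTR at 34.7 and 57.5. Kdr, the chief signalling VEGF receptor, lost its sole region at 16.8 and 58.0 and had 1 and 1 peaks at Re-0 h and 0 in all 6 other lists. Nrp1, a VEGF and semaphorin co-receptor, lost at 28.9 and 55.5, and Pdgfrb, the pericyte receptor, at 23.7 and 37.6. Except for Kdr, each of the genes with lost regions kept other peaks at Re-6 h.

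Cell type markers were called in similar numbers at both times. All genes with a region gained in 9.64% and lost in 8.89%. Of 10 endothelial and pericyte markers with a region, 3 lost (Flt1, Kdr and Pdgfrb) and 1 gained (Kcnj8), with 0 to 1 in the mixed sets. The 3 lost ones are also on the hypoxia and vascular list and were counted there too. Listed genes with a peak numbered 6 and 8 at Re-0 h and 6 and 7 at Re-6 h. Of 8 microglia and macrophage markers, 2 lost and 1 gained: Tmem119, a homeostatic microglia gene, lost its region at 60.3 and 73.1 and had 1 and 5 peaks against 0 and 0, Cx3cr1 lost at 50.6 and 39.8, and Itgam gained at 58.7 and 14.7. Of 12 neuron markers, 2 lost (Tbr1 among them) and 1 gained (Nefm, at 68.1 and 70.4). Of 10 astrocyte and 10 oligodendrocyte markers, 1 each lost (Gjb6, at 82.4 and 81.9, and Opalin, at 30.0 and 65.2) and 0 gained. Mixed sets gave 1 to 3 microglia and macrophage markers, 0 to 2 neuron markers, 0 to 1 astrocyte markers and 0 to 2 oligodendrocyte markers. No neutrophil marker, of 8, had a region.

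Cortical excitatory neuron genes lost in 4 of 19 (21.1%) and gained in 1 (5.26%), with 0 to 3 in the mixed divisions. Over all genes 8.89% lost and 9.64% gained. Tbr1, a deep-layer factor, lost 3′ UTR at 57.2 and 50.9, Cux1 lost at 57.7 and 52.5, and Tle4 at 16.7 and 68.3, while Emx2 gained at 44.9 and 44.2. Striatal and subpallial genes gained in 4 of 25 (16%), namely Six3, Isl1, Gpr101 and Penk (26.7 and 29.4). They lost in 3 (12%), namely Bcl11b (71.2 and 68.1), Adcy5 (63.1 and 76.3) and Rarb (1.03 and 11.1), where mixed sets gave 1 to 4. Six3, Isl1 and Gpr101 were known as leading gained genes before that list was drawn up, so its gained count is not independent of them. All 5 genes lost or gained on the cortical list had peaks in every one of the 4 lists, which was not so for Six3, Isl1, Gpr101 and Penk.

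Excitability and synaptic genes divided the lists often in both directions, beside 9.64% gained and 8.89% lost over all genes with a region. A gene with many regions can hold a gained or lost one more readily, and region number was not taken into account. Voltage-gated ion channel genes gained in 13 of 53 (24.5%) and lost in 9 (17.0%), but a mixed set also reached 13. Scn9a, a sodium channel also expressed in hypothalamic neurons, gained 550 nt before its stop codon at 89.4 and 94.7 and went from 1 and 2 peaks to 4 and 9. Kcna2, a potassium channel of axons, gained at 78.9 and 75.8, while Cacna1b, the N-type calcium channel, lost at 74.3 and 70.9 and gained at 50.0 and 58.5, and Cacna1e, the R-type channel, lost at 72.3 and 75.3. Glutamate receptor and postsynaptic genes gained in 10 of 55 (18.2%) and lost in 11 (20.0%), where mixed sets gave 4 to 7. The mixed sets hold 697 to 1406 genes in all, against 1198 gained and 1104 lost, and set size was not taken into account. Grin3a, an NMDA receptor subunit, gained at 80.0 and 88.1 and at 34.6 and 15.1 and lost at 17.6 and 45.1, and Grm3, a metabotropic receptor, lost at 84.1 and 80.6.

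Other synaptic and wiring lists were close to the mixed divisions, and the same 9.64% and 8.89% of all genes apply to them. Axon guidance genes gained in 11 of 62 (17.7%) and lost in 9 (14.5%), with 3 to 10 mixed. Sema3c, a secreted semaphorin, gained at 81.3 and 99.1 and Plxna2, a semaphorin receptor, lost at 89.5 and 90.1. Presynaptic release genes gained in 7 of 43 and lost in 4 (mixed 1 to 7), led by Pclo, an active zone scaffold, gained at 83.0 and 86.0, and Syt4, lost at 85.9 and 81.4. Synaptic adhesion genes gained and lost in 11 of 72 each (mixed 7 to 16), led by Cdh11 (gained, 84.9 and 95.3) and Chl1 (lost, 86.3 and 81.2). Inhibitory synapse and chloride transport genes gained in 2 of 22, Gabrb2 (81.7 and 76.6) and Gabbr1 (19.8 and 9.33), and lost in 0. Bdnf, the activity-dependent neurotrophin, gained 425 nt of 5′ UTR at 81.2 and 69.4 that no Sham or Re-24 h list held, on a list of neurotrophin and growth factor genes that gained in 5 and lost in 6 of 54 (mixed 5 to 8).

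More genes of the m6A machinery were counted in the gained and lost sets than in any mixed set. Of 22 genes with a region, 4 (18.2%) gained and 5 (22.7%) lost, against 0 to 2 in the mixed divisions and 9.64% and 8.89% of all genes. The mixed sets differ in size, at 697 to 1406 genes against 1198 gained and 1104 lost. Neither set size nor the number of regions per gene was taken into account. Mettl16, the methyltransferase of U6 and of the SAM synthetase RNA, gained 375 nt ahead of its stop codon at 66.0 and 77.0, and the gene went from 0 and 0 peaks to 3 and 2. This region was also called in both Sham and both Re-24 h lists, so the Re-0 h lists were the ones without it. Rbm15, an adaptor of the writer complex, gained a coding region at 63.3 and 54.3, and Rbmx gained 3′ UTR at 26 and 40.3. Ythdf2, the reader that recruits deadenylation, lost a 175-nt coding region at 67.9 and 61.0. Eif3a and Hnrnpa2b1 (52.1 and 39.7) lost as well, Virma, a scaffold of the writer complex, lost a region, and Zc3h13, another writer subunit, both gained and lost.

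Genes the study names for reperfusion injury mostly did not divide the groups. Slc7a11, the cystine transporter that guards against ferroptosis, had a 3′ UTR region in all 4 lists, at 37.4 and 71.3 at Re-0 h and 40.2 and 59.7 at Re-6 h, so the groups overlapped. Ythdf1, a reader linked to translation, had 4 coding regions in all 4 lists, Ythdf3 had 3 regions in all 4, and Ythdf2 had 2 in all 4 beside its lost one. Of the 4 lists, Trp53 was called only in that of Re-0 h replicate 1, at percentile 5.19, Mettl3 only in the same list, at 54.9, and Gpx4 in none. Of ferroptosis, iron and antioxidant genes, 2 of 23 (8.7%) gained and 3 (13%) lost (mixed 1 to 3), beside 9.64% and 8.89% over all genes. Acsl4, which makes oxidisable phospholipids, gained at 82.2 and 69.8, and Aifm2, a ferroptosis suppressor, at 63.8 and 64.9. Nfe2l2 (3.50 and 62.2) and Keap1 (48.3 and 25.4), the antioxidant factor and its inhibitor, lost regions, as did Acsl6 (52.2 and 35.9).

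Of p53 target and cell death genes, 2 of 36 gained, Trp53inp1 (25.2 and 62.9) and Bcl2 (9.74 and 37.6), and 1 lost, Birc6 (89.3 and 89.4), an inhibitor of apoptosis. Histone-modifying enzyme genes gained in 11 of 55 (20.0%) and lost in 13 (23.6%), both within the mixed range of 5 to 13. Over all genes the shares were 9.64% and 8.89%, and the number of regions per gene was not taken into account. Setdb2 (gained, 83.0 and 69.9) and Nsd2 (lost, 79.4 and 81.0, with another region gained at 31.2 and 33.3) led that list. Wnt and beta-catenin pathway genes gained in 4 and lost in 8 of 62 (mixed 4 to 8), and autophagy and mTOR genes gained in 3 and lost in 3 of 53 (mixed 2 to 11).

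**Figure D3:**
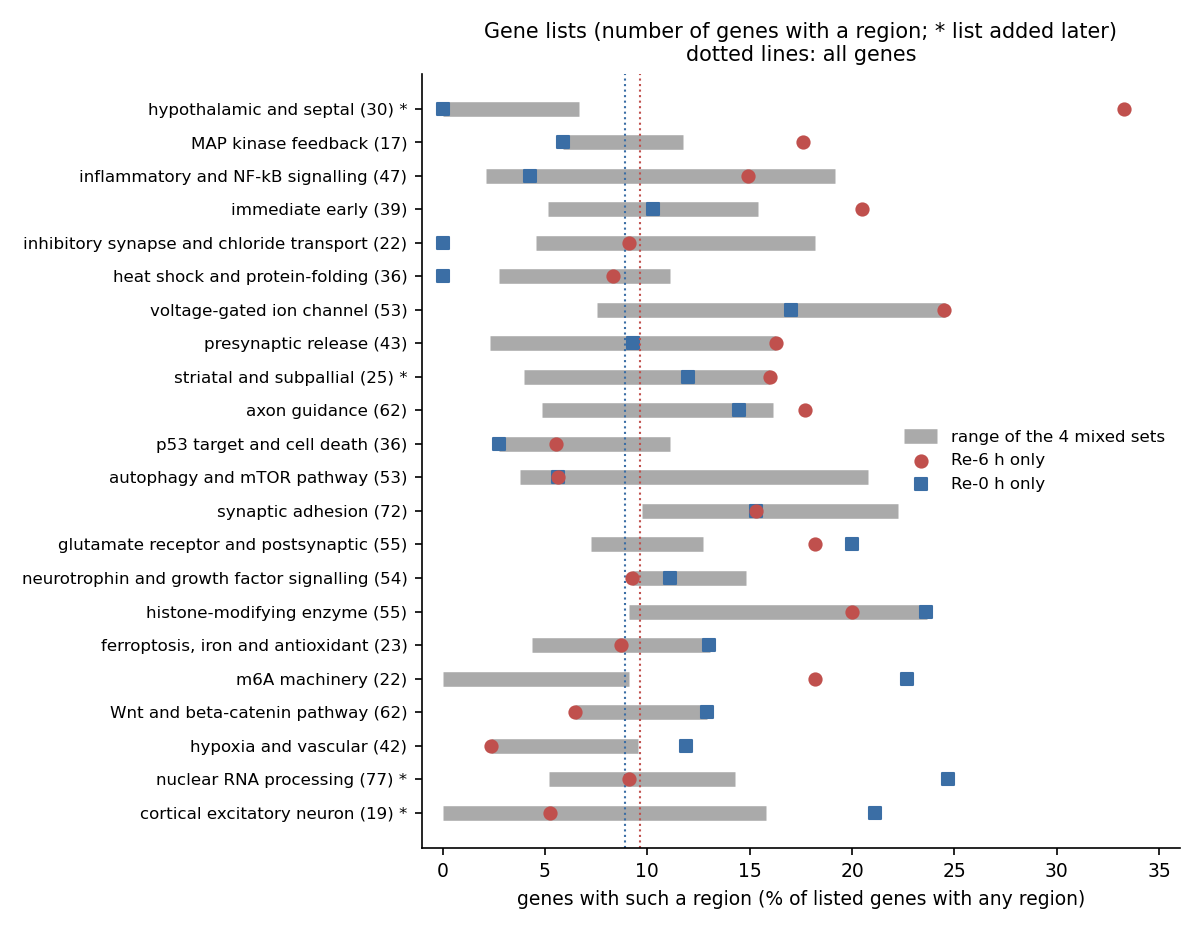
Percent of the genes of a list with a region (x axis), for lists of at least 15 such genes, which leaves out the cell type markers, that held a region called at Re-6 h only (circles) or at Re-0 h only (squares), with the range over the 4 mixed sets as a grey bar and the percentages of all genes, 9.64 and 8.89, as dotted lines. Of the lists plotted, the hypothalamic and septal list has the highest gained share, 33.3%, and the nuclear RNA processing list the highest lost share, 24.7%. Both lists were added after the results had been seen, and the second includes the leading lost genes that led to it, so these ranks are not independent of the data.

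Gained and lost regions were alike in size and strength. The median was 150 nt of exon in both, and the median of the lower percentile was 31.5 and 30.5, whereas regions of all 4 lists had medians of 400 nt and 62.9. Coding sequence held the centre of 53.6% of gained and 51.6% of lost regions, the 3′ UTR that of 28.9% and 31.2%, the 5′ UTR that of 6.34% and 6.77%, and non-coding exons the rest. Long non-coding RNA genes held 92 gained and 87 lost regions.

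Position differed near the stop codon. The centre lay within 200 nt of the stop codon in 168 of 1127 gained regions on a coding transcript (14.9%, Wilson 95% interval 12.9 to 17.1%) and in 199 of 1022 lost regions (19.5%, 17.2 to 22.0%), intervals that cover counting error only. The 4 mixed sets ranged wider, from 14.3% for the lists numbered 1 to 23.1% for those numbered 2, and regions of all 4 lists gave 24.4%. Internal exons held 43.2% of gained and 36.2% of lost regions, again within the 31.9% to 50.0% of the mixed sets. The difference between gained and lost was therefore no larger than that between replicate numbers, and without Re-0 h replicate 2 the order turned, with 18.8% gained and 16.6% lost.

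**Figure D4:**
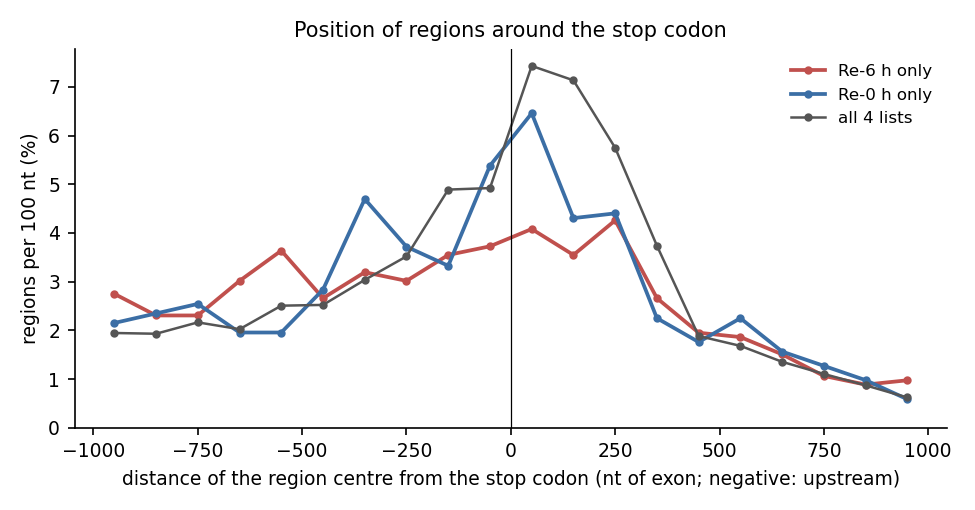
Percent of regions (y axis) by distance of the region centre from the stop codon (x axis, nt along the transcript, negative in coding sequence) for gained regions, lost regions and regions of all 4 lists. The lost curve lies above the gained one in the bins beside the stop codon, 5.38 against 3.73 before it and 6.46 against 4.08 after it.

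The GGACT motif was searched on the transcript strand in the 101 nt around each region centre. It was present in 13.5% of gained and 15.4% of lost windows, with 11.8% to 15.3% in the mixed sets, 16.2% in regions of all 4 lists, 13.6% in all regions of the 4 lists and 9.93% in every window along the same transcripts. Gained and lost windows thus held it at about the rate of all regions. A match shows only that these letters are present.

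Most gained and lost regions lay in genes that the other side had called elsewhere. No peak of the other side was found anywhere in the gene for 297 gained (21.9%) and 219 lost regions (18.3%), against 12.1% to 18.6% in the mixed sets. Where there was such a peak, it lay at a median of 251 and 238.5 nt of exon, and within 100 nt for 17.8% of all gained and 19.8% of all lost regions. When absence required no peak within 100 nt, 1115 gained and 960 lost regions were left. Counting whole genes in place of regions, 446 were called in both Re-6 h lists and neither Re-0 h list and 351 in the reverse, with 164 to 454 in the mixed sets.

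The Sham and Re-24 h lists were not used to choose the regions. Gained regions were called in 25.1% and 28.9% of cases in the 2 Sham lists and in 29.4% and 38.3% in the 2 Re-24 h lists. Lost regions were called in 34.9% and 36.3% of cases in Sham and in 30.7% and 36.2% at Re-24 h. In both Sham lists, lost regions were thus found more often than gained ones, and more often than the regions of any mixed set, which reached 30.7% and 32.0%. Gained regions were found less often in Sham than any mixed set, whose lowest values were 27.8% and 30.1%. Within classes of score this order against the mixed sets did not hold throughout. Below the 25th percentile, lost regions were called in Sham replicate 1 at 18.9%, inside the mixed 17.3% to 23.3%. In Sham replicate 2 they stood at 44.0% from the 50th to the 75th percentile and at 37.8% above it, where mixed sets reached 45.2% and 43.1%. At Re-24 h, gained and lost regions both lay inside the mixed range, 27.5% to 31.2% in replicate 1 and 27.1% to 43.4% in replicate 2.

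By pattern, 90 of 1357 gained and 40 of 1197 lost regions were called in both Re-24 h lists and in neither Sham list. The mixed sets gave from 19 of 735 to 95 of 1557. Called in both Sham lists and neither Re-24 h list were 49 gained and 57 lost regions, against 21 to 47 in the mixed sets. These counts come from sets of unequal size. In no other list were 458 gained and 339 lost regions, and in all 4 others 51 and 71. The 2 Sham lists parted ways for strong lost regions: at or above the 75th percentile, 71.2% were called in Sham replicate 1 and 37.8% in Sham replicate 2, while gained regions stood at 37.2% and 33.7%. Mixed sets of that strength also favoured Sham replicate 1, at 50.0% to 63.8%.

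**Figure D5:**
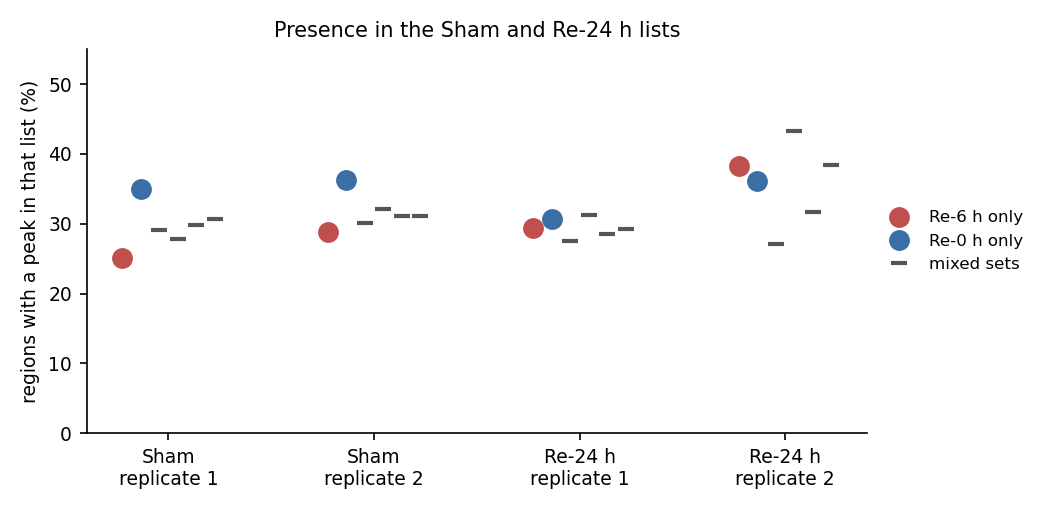
Percent of regions (y axis) called in each Sham and Re-24 h list (x axis) for regions called at Re-6 h only (gained) and at Re-0 h only (lost), with a dash for each of the 4 mixed sets. Lost regions stand above the dashes in both Sham lists, at 34.9% and 36.3%, and gained regions stand below them, at 25.1% and 28.9%.

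Regions present in all 4 lists could be compared by rank. Of 7171, both Re-6 h percentiles exceeded both Re-0 h percentiles in 1449 (20.2%), and the reverse held in 1223 (17.1%). The mixed sets gave 10.9%, 23.5%, 10.5% and 17.9%, so the lists numbered 2 again outranked those numbered 1 more often than either group outranked the other. With a gap of at least 20 points there were 166 and 119 regions by group and 39 to 151 in the mixed sets.

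The genes with the widest gaps, picked here after their values were seen, include known responders to stimulation. Myc, a growth-promoting transcription factor, had a coding region (chr15:61861307-61861931) at 7.16 and 8.21 at Re-0 h and 81.2 and 86.9 at Re-6 h. It was called in neither Sham list and in both Re-24 h lists. Bach1, a haem-responsive repressor of antioxidant genes, rose in rank from 14.5 and 20.4 to 66.6 and 70.0 with the same pattern in Sham and Re-24 h. Rgs16, an inhibitor of G protein signalling, went from 46.4 and 45.0 to 92.3 and 96.2, and Mycl from 23.5 and 25.4 to 75.5 and 75.7. Inhbb, the activin beta B subunit, went from 31.3 and 19.1 to 85.3 and 80.8, and the imprinted Usp29 from 24.7 and 18.8 to 91.8 and 88.4.

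In the opposite direction, the non-coding Pantr1 went from 86.2 and 92.4 at Re-0 h to 16.1 and 10.8 at Re-6 h, and Wdcp from 71.9 and 81.0 to 23.2 and 18.8. Myh11, a smooth muscle myosin of vessel walls, went from 67.5 and 78.4 to 21.2 and 9.56. Among immediate early genes, Klf6 had a 3′ UTR region at 49.1 and 51.0 that stood at 81.0 and 80.5 at Re-6 h, and Csrnp1 had a coding region at 62.3 and 47.7 that stood at 83.5 and 83.1. The lower rank came at Re-6 h in Btg2 (93.5 and 93.7 to 89.7 and 87.1), Ier5l (83.2 and 91.3 to 74.3 and 80.3), Klf4 (93.6 and 94.2 to 87.9 and 92.7) and 1 of 2 regions in the 3′ UTR of Homer1 (94.6 and 94.9 to 92.7 and 84.5). Over all 7171 regions in all 4 lists, both Re-6 h percentiles were the higher in 20.2% and both Re-0 h percentiles in 17.1%. Immediate early genes had 23 regions in all 4 lists. Both Re-6 h percentiles were above both of Re-0 h in 8, the reverse held in 4, and 11 overlapped. Among the last, a region in the 3′ UTR of Ier5 was at 99.3 and 94.9 and then at 98.3 and 98.2, and one in the 3′ UTR of Egr2 was at 59.3 and 68.2 and then at 61.4 and 73.6.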

How the data were processed

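MeRIP-seq IP and input libraries were prepared from peri-infarct cortex, and the peak lists of the IP libraries were used here. Per the sources, the authors trimmed reads with Trim Galore, aligned them to GRCm39 with HISAT2, filtered with SAMtools and called peaks with exomePeak2. RNA was fragmented to a length that the methods and the sample records give differently. The deposited lists hold 1 score per peak, whose scale the authors do not define, and no read counts, so depth is unknown. Nothing says that the 2 libraries of a group came from separate animals.

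Blocks of each peak were rebuilt on GENCODE M39 exons, since spans crossed introns, and peaks sharing at least 1 exonic base on a strand were joined (Python 3.11.15, numpy 2.4.6, scipy 1.17.1, matplotlib 3.10.9). Positions were taken on the transcript with the longest coding sequence. Joining and counting were tested on simulated lists. No test across groups was made, because 2 lists against 2 cannot reach a p below 0.333. The mixed divisions serve as the comparison, and counts of list genes were not scaled to the differing sizes of their sets.

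Named genes were the 10 leading protein-coding genes by score percentile of their gained and of their lost regions, up to 3 each way per gene list, genes with 3 or more regions one way, the 5 leading genes without a peak on the other side each way, and the genes the study names. Members and lists were chosen with earlier results of these data known. The regional lists, the nuclear RNA processing list and the percentile and gene restrictions were chosen after seeing the data, as were other members of lists and the regions ranked by gap. Alternatives left out each library, equalised list sizes, kept the higher-scoring 50%, and changed the joining, overlap, absence, exon set, stop codon window and transcript. Results for some genes covered by these rules are not reported here.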

Additional observations from a re-analysis of the deposited data

How the results depend on the processing

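Of 115 values recomputed under an alternative, 75 stayed within the limits set, which were 1.5 times for counts and the ratio, the Wilson interval for shares near the stop codon and 1 SD for those in the Re-24 h lists, and 40 moved. Leaving out 1 library, so that a side rests on 1 list, gave 2162 to 7836 gained and 2181 to 8288 lost regions, in 1832 to 5168 and 1883 to 5398 genes. Those settings put 14.6% to 18.8% of gained and 16.4% to 21.2% of lost regions near the stop codon, and 17.3% to 48.7% and 17.2% to 45.5% in the Re-24 h lists (mean of both). By construction, a side with 1 list holds more regions. The higher-scoring 50% of each list gave 760 gained and 625 lost regions in 662 and 581 genes, of which 55.5% and 50.3% were in the Re-24 h lists. A stop codon window of 100 nt gave 7.81% and 11.8%, and one of 400 nt gave 28.04% and 34.5%. The ratio to the mixed divisions was above 1 in 12 of 12 settings, 1.16 to 2.5, with 2.05 at the 75th and 2.5 at the 90th percentile, and could not be computed with 3 lists. With all 4 lists, more regions were gained than lost in 10 of 10 settings, but among regions at or above the 75th percentile 86 were gained and 111 lost. The lost share near the stop codon was higher in 15 of 16, the exception being that without Re-0 h replicate 2. Deviations of same-numbered lists correlated at 0.0131 over 41423 regions, while 2292 regions divided the lists by number and 1933 crosswise. Whether replicate numbers pair the libraries cannot be told from these values. With the replicate number as a block, 10409.5 regions were gained and 9821.5 lost on average, 11074 against 8702 for number 1 and 9745 against 10941 for number 2. Depth is unknown, so absence from a list can reflect depth, and its part was not tested.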
